A study of Mus musculus with 104 samples.

Results

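The receptor genes of T and B lymphocytes were followed in whole mouse lung after exposure to phosgene (CG), a reactive gas that injures the lung. All probe sets annotated to Cd3d, Cd3g, Cd4, Cd8a, Lck, Cd79a or Cd79b alone were taken, which gave 8 probe sets of 6 genes among 22626 probe sets that are not array controls and 12393 genes with a probe set of their own. Lck, 1 of the 7 symbols, was not analysed here. The groups were lungs of mice exposed to CG, labelled with an amount of 32 mg, lungs of mice exposed to air, and untreated lungs. CG and air lungs were taken at 0.5, 1, 4, 8, 12, 24, 48 and 72, labelled without a unit and read as hours from knowledge of the study, while no volume of air is given for the amount. Each CG group held 3 lungs, each air group 3 except the 4 of 48 h, and 3 lungs were untreated, or 24 CG lungs, 25 air lungs and 52 lungs in all. The labels used here state no strain, sex or age.

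T cells read antigen through the T cell receptor, whose signal is passed on by the CD3 chains, and CD4 or CD8 serves as coreceptor and marks helper or cytotoxic T cells. B cells read antigen through membrane immunoglobulin, which signals through the paired chains CD79a and CD79b. In lung these transcripts come from lymphocytes among a large majority of epithelial, endothelial and myeloid cells. In bulk lung, fewer cells of a type and less RNA per cell cannot be told apart.

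Each lung was measured on 2 chips of an oligonucleotide array, and the values are linear intensities that were scaled to a common trimmed mean on every chip. The median intensity of a chip was 68.2 at the lowest and 90.1 at the highest. Whether each numbered lung came from its own mouse is not stated, so p values measure only how far numbered lungs differ, which may be technical. The 2 chips of a lung were averaged, so precision is limited by how few lungs each group holds. The tissue label was borne out by the lung epithelial genes, since Sftpc, a surfactant protein, lay between 4638 and 9230 in 51 lungs and at 6723 in the remaining one. That remaining lung, air 1 h replicate 1, stood apart for lymphocyte genes, and results that rest on it are given with and without it.

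All members were dim or of middling brightness on the array. By mean intensity over the lungs, Cd79b (1417640_at) stood at percentile 50.4 of all probe sets, Cd79a (1418830_at) at 46.8, Cd3g (1419178_at) at 43.7, Cd8a (1451673_at) at 38.6 and Cd3d (1422828_at) at 31.1. The brighter probe set of Cd4 (1419696_at) stood at percentile 12.4, and the dimmer ones of Cd8a (1425335_at) and Cd4 (1427779_a_at) at 10.8 and 1.9. Levels of different probe sets are not comparable with each other, and a dim probe set limits what change can be seen. Cd3d was the noisiest, with an SD of 0.464 between the chips of a lung on the log2 scale and 0.598 between lungs of a group, against medians of 0.215 and 0.213 over all probe sets. Without air 1 h replicate 1 its SD between lungs was 0.506. By the brightest probe set, that SD went from 0.288 to 0.192 for Cd3g, from 0.188 to 0.098 for Cd4 and from 0.360 to 0.242 for Cd8a. Cd79a had 0.222 and 0.282, and Cd79b 0.216 and 0.260, so their chips varied as much as those of a usual probe set and their lungs somewhat more.

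Promoters of 4 members were matched by symbol in RefSeq on GRCm38.p6. The 250 bases before the start of transcription are shown for the B cell gene whose level differed most between CG and air over all times, and for Cd3g and Cd3d, neighbours on opposite strands of 1 chromosome whose products join the same complex. Both strands were searched for CAGGAAGT (a site of ETS family factors), CAGGTG (an E-box), ATGCAAAT (the octamer of B cell promoters) and TATAAA (the TATA box), none of which overlapped another in these stretches. Matches are in capitals.
Cd79a, chr7:24897247-24897496, plus strand: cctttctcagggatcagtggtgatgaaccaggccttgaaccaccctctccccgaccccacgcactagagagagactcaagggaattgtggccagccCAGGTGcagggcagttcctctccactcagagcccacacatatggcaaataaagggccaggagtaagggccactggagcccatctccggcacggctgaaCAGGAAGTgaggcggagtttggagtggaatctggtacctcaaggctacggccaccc
Cd3g, chr9:44980432-44980681, minus strand: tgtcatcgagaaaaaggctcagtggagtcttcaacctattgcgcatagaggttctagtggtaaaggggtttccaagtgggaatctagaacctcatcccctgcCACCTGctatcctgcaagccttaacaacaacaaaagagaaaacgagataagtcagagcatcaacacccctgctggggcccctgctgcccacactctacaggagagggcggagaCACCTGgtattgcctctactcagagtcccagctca
Cd3d, chr9:44981536-44981785, plus strand: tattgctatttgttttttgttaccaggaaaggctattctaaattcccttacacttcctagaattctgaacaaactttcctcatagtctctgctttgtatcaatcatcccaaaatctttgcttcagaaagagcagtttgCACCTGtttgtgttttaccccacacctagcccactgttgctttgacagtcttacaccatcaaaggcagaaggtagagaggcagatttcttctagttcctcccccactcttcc
The Cd79a stretch holds CAGGAAGT 56 bases before the start, a motif found in 2.69% of 32851 promoter stretches of the same length, and CAGGTG 154 bases before it. Cd3g holds CAGGTG on the other strand at 148 and 35 bases before the start, and Cd3d at 112. The E-box was found in 17.2% of all stretches, the octamer in 1.6% and the TATA box in 12.4%, and neither of these last motifs was in the 3 stretches shown. The stretch of Cd8a, the remaining member matched, held none of these motifs and is not shown. A match is a description of letters and not a binding site.

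Phosgene was compared with air at each time, which asks whether the lymphocyte receptor genes of the lung respond to the gas. Of the 8 probe sets, 0 passed an adjusted p under 0.05 at any single time in limma, while between 0.217% and 6.11% of all probe sets did. At an unadjusted p under 0.05, 4 of 8 passed at 1 h, 1 at 12 h, 2 at 24 h, 2 at 48 h and 0 at 0.5, 4, 8 and 72 h, while 7.36%, 13.3%, 10.6% and 15.3% of all probe sets passed that threshold at 1, 12, 24 and 48 h. The 4 at 1 h were Cd3g, the brighter probe set of Cd4 and both of Cd8a, and without air 1 h replicate 1 they were 0 of 8, against 5.88% of all probe sets. By adjusted p, the shares of all probe sets called were 0.217% at 0.5 h, 0.729% at 1 h, 3.82% at 4 h, 6.11% at 8 h, 1.42% at 12 h, 1.29% at 24 h, 4.23% at 48 h and 2.86% at 72 h. A count of 0 of 8 therefore stands near the background at each time. When tested on simulated data, the fit called 81 of 100 probe sets given a log2 difference of -1 at 24 h. The members' differences at that time were all smaller in size. Those 100 were drawn at random from all probe sets, and most members varied more between lungs than the usual probe set. The share called therefore does not measure how well a change in the members could be seen.

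The B cell genes gave the largest differences at 24 and 48 h. At 24 h Cd79a, a signalling chain of the B cell receptor, had intensities of 54.25, 48.25 and 76.6 in CG lungs, against 97.75, 102.05 and 90.7 in air lungs. Cd79b, its partner chain, had 55.5, 52.9 and 82.0 in CG lungs, against 110.75, 104.05 and 95.35 in air lungs. Every CG lung lay below every air lung for both genes, with 1 CG lung close to the air lungs. On the log2 scale of intensity plus 16, the difference of CG minus air was -0.598 ± 0.209 (SE) for Cd79b and -0.595 ± 0.226 for Cd79a, with limma adjusted p of 0.194 and 0.265. In 10.0% of all probe sets every CG lung of 24 h lay below every air lung.

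At 48 h Cd79a stood at 39.0, 46.9 and 47.75 in CG lungs, against 86.1, 80.35, 77.75 and 51.6 in air lungs. Cd79b stood at 47.95, 74.35 and 55.85 in CG lungs, against 85.7, 89.1, 120.1 and 76.1 in air lungs. The groups were again apart for both genes, although the highest CG lung and the lowest air lung of each lay close together. The log2 differences were -0.563 ± 0.211 for Cd79a and -0.527 ± 0.196 for Cd79b, with limma adjusted p of 0.140 and 0.135, and 7.83% of all probe sets had every CG lung below every air lung. In a fit on single chips with a random block for the lung and the chip letter as a replicate block, both passed at 48 h, with limma adjusted p of 0.0440 for Cd79a and 0.0491 for Cd79b. Labels do not state that a chip letter pairs lungs, so these calls are not added support. No member gene was called at 48 h in 12 of 15 alternative settings or in any of the 7 fits without 1 lung. Chips were hybridized on 11 days, and within single days that held CG and air chips of 1 time, both genes were lower in CG on 4 of 4 days at 24 h and on 3 of 3 days at 48 h. The days share lungs, since they hold chips of 2 CG and 3 air lungs at each of these times. Those within-day differences ran from -0.888 to -0.195 for Cd79a and from -1.07 to -0.202 for Cd79b at 24 h, and from -0.931 to -0.18 and from -0.466 to -0.154 at 48 h. At the other times Cd79a was lower in CG on 2 of 5 days at 0.5 h, 2 of 4 at 1 h, 1 of 2 at 4 and 72 h and 2 of 2 at 8 and 12 h, and Cd79b on 5 of 5 days at 0.5 h, 0 of 4 at 1 h, 1 of 2 at 4 h, 2 of 2 at 8 and 12 h and 0 of 2 at 72 h.

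**Figure D1:**
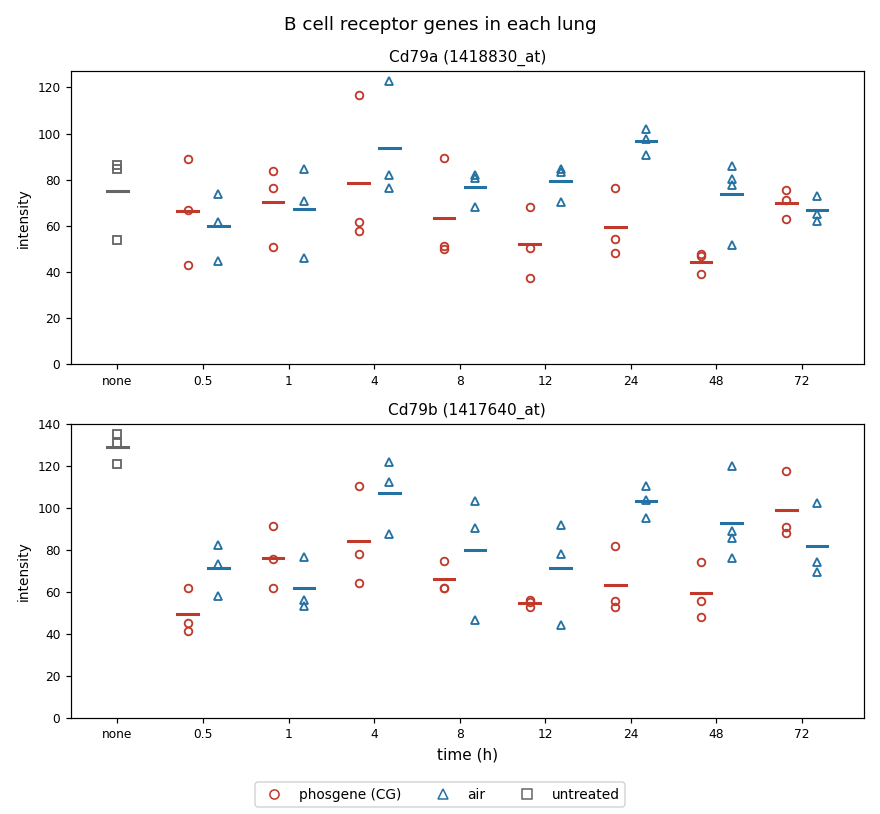
Intensity of Cd79a and Cd79b in each lung (y axis, linear) against time in hours (x axis), with "none" for untreated lungs, circles for CG, triangles for air, squares for untreated lungs and short bars for group means. CG lungs lie below the air lungs at 24 and 48 h for both genes, and untreated lungs are the highest group for Cd79b, with a mean of 129.2.

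At the other times the B cell genes of CG and air lungs mostly overlapped. At 12 h Cd79a had 50.3, 37.5 and 68.3 in CG lungs, against 84.8, 83.35 and 70.2 in air lungs, with no overlap, a log2 difference of -0.51 ± 0.23 and a limma adjusted p of 0.314. The share of all probe sets without overlap was not counted at 12 h. Cd79b had 52.8, 55.3 and 56.05 in CG lungs, against 78.1, 92.2 and 44.1 in air lungs, where 1 air lung lay below all CG lungs. At 72 h Cd79a had 71.25, 75.7 and 63.15 in CG lungs, against 73.15, 62.3 and 65.05 in air lungs, and Cd79b had 88.3, 117.85 and 91.1 in CG lungs, against 69.65, 102.55 and 74.15 in air lungs. Both ranges overlapped at 72 h, and the differences were 0.05 ± 0.23 for Cd79a and 0.24 ± 0.21 for Cd79b. At 0.5, 1, 4 and 8 h the differences lay between -0.42 and 0.24 and every pair of groups overlapped. The F test asking whether the phosgene effect changed with time gave adjusted p of 0.372 for Cd79b and 0.638 for Cd79a, so a difference between times was not shown, with 2.74% of all probe sets called.

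Averaged over the 8 times with equal weight, 3 of the 8 probe sets were called, all of them lower in CG, and all 8 had a negative difference. In that comparison 22.2% of all probe sets were called in either direction and 12.9% were called lower, which is the background for 3 of 8. Cd79a differed by -0.252 ± 0.079 (limma adjusted p = 0.0176), Cd79b by -0.228 ± 0.073 (0.0205) and Cd3g, a CD3 chain of the T cell receptor, by -0.221 ± 0.081 (0.0442). Cd8a differed by -0.242 ± 0.100 and did not pass (0.0769), nor did Cd4, whose brighter probe set differed by -0.115 ± 0.054 (0.122), or Cd3d, another CD3 chain, by -0.104 ± 0.162 (0.700). The dimmer probe sets of Cd8a and Cd4 differed by -0.196 and -0.032. The median over the 8 probe sets was -0.209, against -0.030 over all probe sets. All of these differences are small on the log2 scale, the largest being that of Cd79a.

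**Figure D2:**
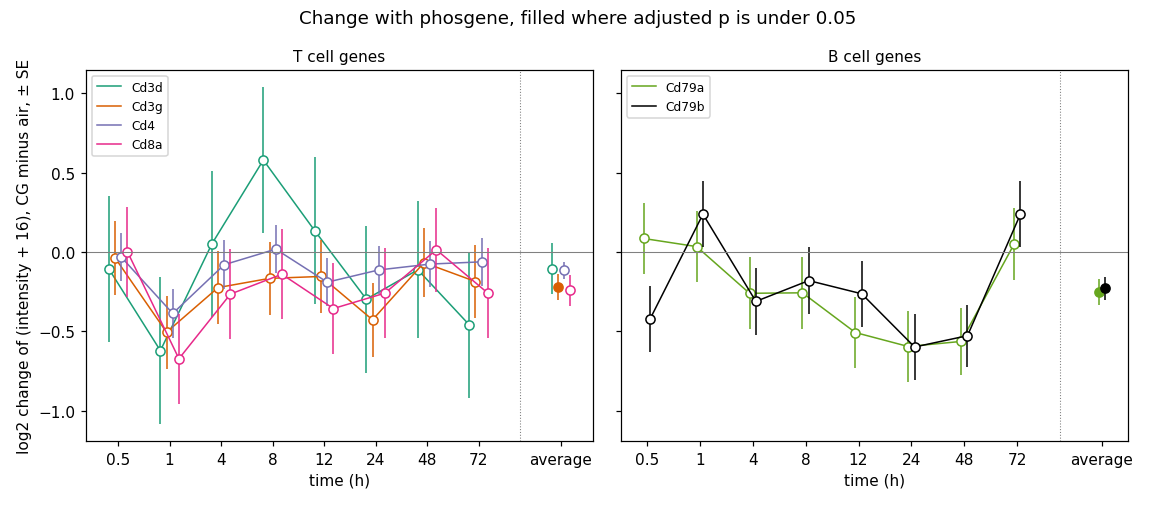
Log2 change of intensity plus 16, CG minus air, with its SE (y axis), at each time in hours and averaged over times (x axis), for the brightest probe set of each T cell gene (left) and B cell gene (right), filled where the limma adjusted p was under 0.05. Filled points are Cd3g, Cd79a and Cd79b in the average, while Cd79a and Cd79b are lowest at 24 and 48 h and not called at any single time.

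The Cd3g average moved most without air 1 h replicate 1, to -0.155 with a limma adjusted p of 0.0505. Cd79a and Cd79b kept their calls without it, at -0.233 (0.0316) and -0.211 (0.0362). Leaving out 1 of the 49 CG and air lungs at a time kept the Cd79a and Cd79b calls in every case, with adjusted p up to 0.0333 and 0.0376, and kept that of Cd3g in 24 of the 49. The highest adjusted p of Cd3g was 0.0740, without CG 72 h replicate 3 (-0.201), so its call depended on many single lungs. The numbers of 5 air lungs stand apart from those of the other air lungs and directly follow those of the untreated lungs. Without these 5, the Cd79b average was -0.174 (limma adjusted p = 0.104), while Cd79a gave -0.293 (0.0159). With chips centred on their medians only Cd79a of the 3 passed (-0.218, limma adjusted p = 0.0300), Cd79b giving -0.194 (0.0705) and Cd3g -0.187 (0.0666), and with hybridization day as a term Cd79b gave -0.192 (0.0543). On chip B alone none passed, with differences of -0.181 for Cd79a, -0.206 for Cd79b and -0.189 for Cd3g and adjusted p of 0.156, 0.107 and 0.186.

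The T cell genes overlapped between CG and air at most times. By the brightest probe set, the exceptions were Cd4 and Cd8a at 12 h and Cd3g at 24 h, and the dimmer probe set of Cd8a was also apart at 0.5 and 8 h and that of Cd4 at 12 h, each lower in CG and none called. At 24 h 10.0% of all probe sets were apart in that direction. This share was not counted at 0.5, 8 and 12 h, so the separations there have no background beside them. At 1 h Cd3d had 27.2, 30.2 and 25.1 in CG lungs, against 178.15, 20.65 and 24.75 in air lungs. Cd8a, the alpha chain of the CD8 coreceptor, had 55.0, 50.8 and 37.15 in CG lungs, against 229.0, 49.55 and 45.3 in air lungs, and Cd4, the helper T cell coreceptor, had 12.3, 11.75 and 10.3 in CG lungs, against 52.5, 10.35 and 12.6 in air lungs. Air replicate 1 was far above the rest. Without it the CG and air lungs of that time overlapped for Cd8a and Cd4, while every CG lung of Cd3d lay above both remaining air lungs. The closest were 25.1 and 24.75, and the chips of the latter lung read 12.7 and 36.8. The share of all probe sets apart in that way at 1 h was not counted. At 24 h Cd3g had 55.45, 37.15 and 61.25 in CG lungs, against 70.2, 73.75 and 76.2 in air lungs, a difference of -0.43 ± 0.23 with no overlap that did not pass (limma adjusted p = 0.545). Cd4 at 12 h lay at 8.6, 9.2 and 11.65 in CG lungs, against 12.9, 13.0 and 14.25 in air lungs, a difference of -0.19 ± 0.15 (limma adjusted p = 0.620). Cd3d at 8 h lay at 94.2, 85.35 and 29.0 in CG lungs, against 18.7, 35.35 and 71.0 in air lungs, and the groups overlapped. Its difference was the largest positive one of the members, 0.58 ± 0.46, and did not pass (adjusted p = 0.560). On the 2 days that held CG and air chips of 8 h, from 1 CG and 1 air lung, Cd3d was lower in CG, by -1.45 and -0.46.

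**Figure D3:**
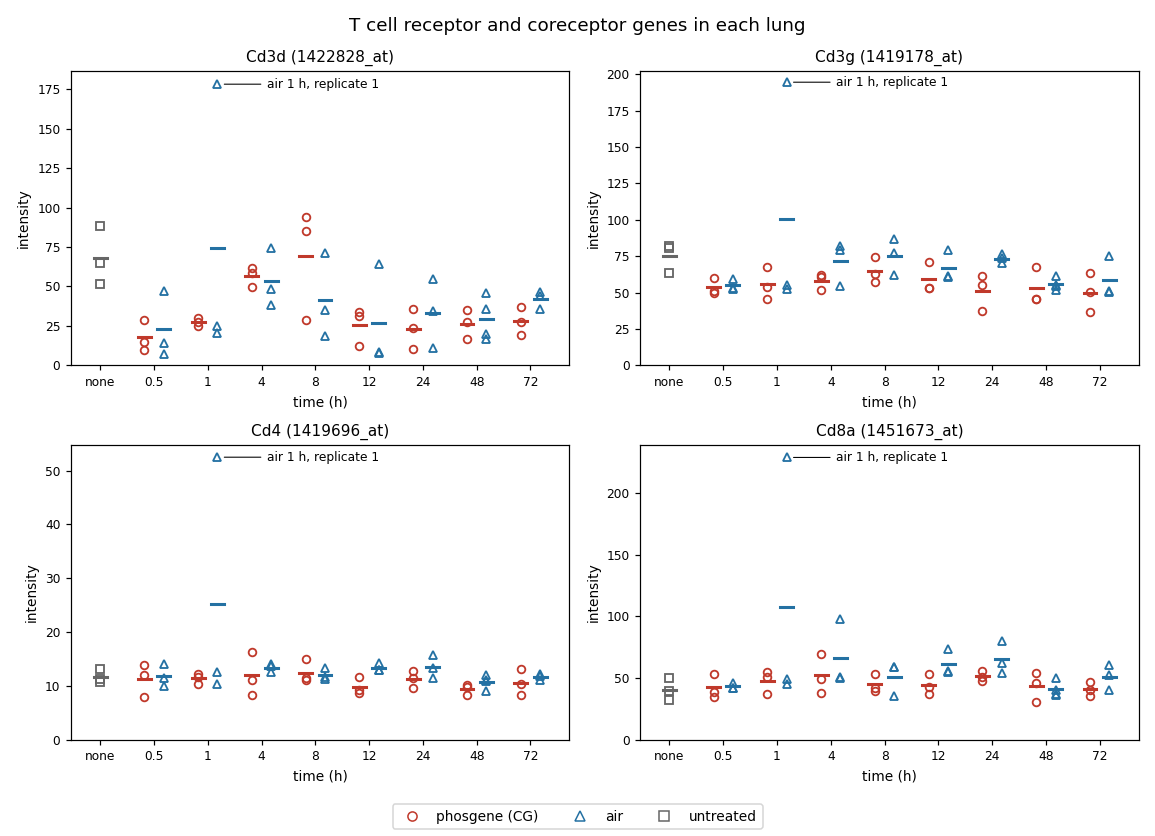
Intensity of Cd3d, Cd3g, Cd4 and Cd8a in each lung (y axis, linear) against time in hours (x axis), with "none" for untreated lungs, circles for CG, triangles for air, squares for untreated lungs and short bars for group means. The lung air 1 h replicate 1 is the highest of 52 for each of the 4 genes.

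Air 1 h replicate 1 had 178.15 for Cd3d, 194.55 for Cd3g, 229.0 for Cd8a and 52.5 for Cd4, each the highest of 52 lungs. The highest values elsewhere were 94.2, 86.65, 97.65 and 16.4, so all 4 genes stood outside the range of the other 51 lungs. Cd79a (84.75) and Cd79b (76.9) of that lung lay within the range of the others. Genes that act in developing T cells of the thymus were also highest there. Rag1, which cuts DNA for receptor gene assembly, had 303.1 against at most 27.15 in the other 51 lungs, Dntt, which adds bases at those joints, had 188.8 against at most 69.75, and Cd8b1, the other CD8 chain, had 172.6 against at most 36.25. Rag2, the partner of Rag1, had 9.7 and was not the highest, and Adipoq, a fat cell hormone, had 707.5 against at most 298.5. By list, 15 of 27 T cell genes, 7 of 17 thymocyte genes, 6 of 7 fat genes, 1 of 24 B cell genes and 0 of 20 NK genes were highest of 52 lungs in this one, against 3.07% of all genes. The summed intensity of the T cell list was 3495 there and between 1375 and 2306 in the other 51 lungs, and that of the thymocyte list was 2573 and between 1421 and 2117. With that lung, 24 of 27 T cell genes were lower in CG than in air at 1 h, with a median log2 difference of -0.283, and without it 14 of 27 were, with a median of -0.003. The part of thymocyte or fat RNA in the T cell values of that lung was not tested.

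**Figure D4:**
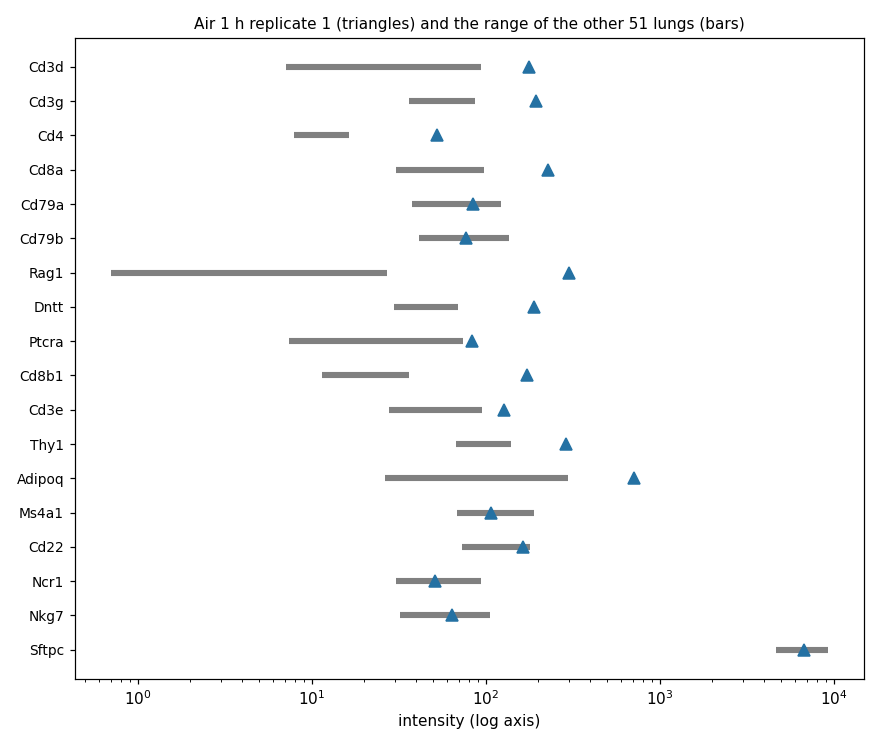
Intensity (x axis, log scale) of 18 genes in air 1 h replicate 1 (triangles) and the range of the other 51 lungs (bars). The T cell genes, Rag1, Dntt, Ptcra, Cd8b1, Cd3e, Thy1 and Adipoq lie above the range of the others, while Cd79a, Cd79b, Ms4a1, Cd22, Ncr1, Nkg7 and the lung gene Sftpc lie within it.

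Group means were then ordered from lowest to highest over the 17 groups. Neighbours in that order differed by less than the larger of their SDs in all 16 pairs for 6 of the probe sets, and in 15 of 16 for Cd79b and for the dimmer probe set of Cd8a. Sorting itself makes such gaps small, and the lung that stood apart raised the SD of air at 1 h. The counts therefore show only that ranks of neighbours are not secure, and not whether groups differ. For Cd79a the lowest mean was 44.6 in CG lungs of 48 h and the highest 96.8 in air lungs of 24 h. For Cd3d, Cd3g, Cd4 and Cd8a the highest mean was that of air at 1 h, which holds the lung that stood apart.

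Untreated lungs held the highest mean Cd79b level of the 17 groups. Cd79b had 120.9, 131.05 and 135.5 in untreated lungs, against group means between 49.4 and 107.5 in exposed lungs. Single exposed lungs reached that range, with 121.95 in air 4 h replicate 2. The chips of untreated replicate 2 were far apart, at 91.2 and 170.9. It was lower in CG than in untreated lungs, with limma adjusted p under 0.05, at 0.5 h (-1.15 ± 0.21, 0.000877), 8 h (-0.81, 0.0105), 12 h (-1.02, 0.00319), 24 h (-0.86, 0.0147) and 48 h (-0.94, 0.00465), and did not pass at 1, 4 and 72 h. These comparisons share the same 3 untreated lungs and count their spread each time. At these times 0.323%, 4.26%, 1.05%, 1.37% and 1.91% of all probe sets were called lower, and at 1, 4 and 72 h 1.22%, 2.0% and 1.48% were. The call of 8 h was lost without CG replicate 1 (-0.765), and that of 24 h was lost without CG replicate 1 (-0.796), without CG replicate 2 (-0.769) or without untreated replicate 3 (-0.827). On chip A alone the calls of 8 h (-0.748, adjusted p = 0.0555), 12 h (-0.829, 0.0639) and 24 h (-0.669, 0.198) were lost, while those of 0.5 and 48 h were kept under every alternative run. No other member was called in CG against untreated lungs. The difference of Cd3d was larger in size than that of Cd79b at 0.5 h (-1.34), 12 h (-1.05), 24 h (-1.13) and 48 h (-1.04). Cd3d was noisier and did not pass.

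Air was also set against untreated lungs, which asks whether air exposure itself went with a difference. Averaged over times, Cd79b differed by -0.558 ± 0.157 in air minus untreated lungs, and with a limma adjusted p of 0.133 it did not pass. At 1 h Cd79b had 76.9, 53.15 and 56.25 in air lungs, against 120.9, 131.05 and 135.5 in untreated lungs, and the difference of -0.89 ± 0.21 had an adjusted p of 0.0911. At 0.5 and 12 h it was -0.73 and -0.76, with adjusted p of 0.142 and 0.0574. Cd3d, the noisiest member, differed more, by -0.736 averaged over times, -1.23 at 0.5 h and -1.19 at 12 h, and did not pass. A lower level in air than in untreated lungs was therefore not particular to Cd79b. Of the 8 probe sets 0 passed at any time in air against untreated, and the shares of all probe sets called were 0.177%, 0.0707%, 0.00442%, 0.00442%, 1.11%, 0.0663%, 0.124% and 0.0840% at 0.5, 1, 4, 8, 12, 24, 48 and 72 h, and 0.124% in the average. In the F test for a change with time in air, Cd79b had the lowest adjusted p of the members, 0.385, and 0.592% of all probe sets passed. All comparisons with untreated lungs rest on 3 lungs.

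The genes whose levels followed each member best over the lungs are given as a description, with no p, since the lungs share arrays, days and scaling. Over 52 lungs, Cd79a was followed most closely by Ms4a1, a B cell surface protein (r = 0.805), Spib, a B cell transcription factor (0.720), and Gpsm3 (0.677). Without air 1 h replicate 1 the first was still Ms4a1 (0.81 over 51 lungs). Cd79b was followed by Ighv14-2, an immunoglobulin variable segment (0.662), and its own correlation with Cd79a was 0.589. Cd3d was followed by Trav9d-3, a T cell receptor variable segment (0.813 over 52 lungs and 0.764 over 51). Cd3g was followed by Trbv1 (0.781), Cd8b1 and Prss16, and without that lung by Ccr7 (0.700), a homing receptor of naive lymphocytes, Rasgrp2 and Otud5. Cd4 and Cd8a were followed by Bcl11b, a T cell transcription factor (0.883 and 0.745), and by Rag1. Without that lung Bcl11b and Rag1 were no longer among the closest 3 of either gene. Cd4 was then closest to Armc12 (0.720) and Cd8a to Fam187a (0.711), which are on none of the lymphocyte lists used here. Cd4 and Cd8a correlated at 0.834 over 52 lungs and at 0.610 over 51, and Cd3g and Cd4 at 0.685 and 0.282. With group means taken off, Rac2 (0.736), Klf1 and Chrnd were closest to Cd79a over 52 lungs, in place of Ms4a1 and Spib. Ighv14-2 (0.637) stayed closest to Cd79b and Trav9d-3 (0.807) to Cd3d. Over 51 lungs and with group means off, Cd3d and Cd3g correlated at 0.074 and Cd3g and Cd4 at -0.006. Cd4 and Cd8a did so at 0.515, and Cd79a and Cd79b at 0.442.

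Other lymphocyte genes were counted from lists of T cell, B cell, NK cell and homing genes, which hold the members too. Averaged over the 8 times, 1 of 27 T cell genes was higher and 6 were lower, 0 of 24 B cell genes were higher and 8 were lower, and 0 of 20 NK genes were higher and 7 were lower. The medians were -0.137, -0.128 and -0.107, against -0.030 over all probe sets. Without air 1 h replicate 1 the counts lower were 4, 6 and 7, with medians of -0.121, -0.117 and -0.103. In this comparison 12.9% of all probe sets were called lower and 9.35% higher. By median the NK genes of CG lungs did not lie below untreated lungs at any time, while the T and B cell medians did. The NK median in CG against untreated lungs lay between 0.019 at 24 h and 0.189 at 4 h, with 0 called lower at any time. In air against untreated lungs, averaged, it was 0.223 with 0 of 20 genes negative, against 0.043 over all probe sets.

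Among the T cell genes lower in CG, Gata3, a transcription factor of T and other lymphocytes, differed by -0.507 ± 0.086 (limma adjusted p = 1.91e-05), Lat, an adaptor of receptor signalling, by -0.477 ± 0.114 (0.00167), Cd2, an adhesion receptor, by -0.286 (0.000546) and Cd247, the CD3 zeta chain, by -0.249 (0.0124). The T cell gene that was higher was Ptpn22, a phosphatase that restrains receptor signalling (0.216, 0.0453). Among B cell genes, Ms4a1 differed by -0.229 ± 0.057 (0.00272), Spib by -0.217 (0.00498), Ccr6, a chemokine receptor, by -0.215 (0.0168) and Cd22, an inhibitory coreceptor, by -0.203 (0.0179). Among the NK genes, Gzma, a granzyme, differed by -0.445 (0.0136), Ccl5, a chemokine, by -0.389 (0.000469), Nkg7, a granule protein, by -0.358 (0.000691) and Ncr1, an activating receptor, by -0.313 (0.000632). Of 11 homing genes 4 were lower, with Cxcr4, the receptor that holds lymphocytes in tissue, at -0.667 ± 0.086 (1.38e-07), Itgal, an integrin chain, at -0.363 (0.00538), Cxcl12, the ligand of Cxcr4, at -0.342 (6.13e-06) and Itgb7, an integrin chain, at -0.318 (0.00333). At single times, Cd2 (-0.694, 0.0326) and Ccl5 (-0.981, 0.022) were lower at 24 h and Gata3 at 48 h (-0.799, 0.0341), and these were the only single-time calls of the T cell and NK lists. The single-time call of the B cell list was Ly86, which was higher in CG at 72 h (0.708, 0.0113). On the thymocyte and lymphocyte precursor list, Vpreb3 was lower in CG at 4 h (-0.557, 0.0143), 8 h (-0.7, 0.000865) and 12 h (-0.744, 0.00133). Cd1d1, on that list too, was lower at 24 h (-0.6, 0.0173) and 48 h (-0.484, 0.0238). Of the homing genes, Cxcr4 was lower at 4 h (-0.827) and 8 h (-1.19), Cxcl12 at 4 h (-0.611), 8 h (-0.813) and 72 h (-0.632) and Itgb7 at 24 h (-0.886).

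**Figure D5:**
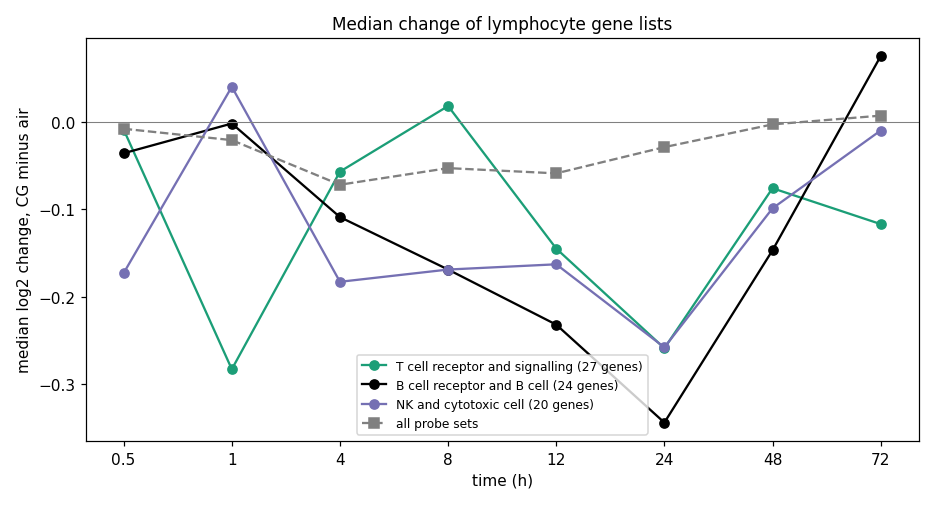
Median log2 change, CG minus air, of the T cell, B cell and NK gene lists (y axis) at each time in hours (x axis), with the median of all probe sets as a dashed line. The B cell median is lowest at 24 h, at -0.344, and at 72 h it is 0.075.

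The summed intensity of the 24 B cell genes lay between 1499 and 1863 in CG lungs of 24 h and between 2053 and 2361 in air lungs, and that of the 27 T cell genes between 1481 and 1593 and between 1867 and 2228. Neither range overlapped its counterpart at that time. The NK sums were also apart and lower in CG (844.1 to 923.8 against 1292 to 1417). So were those of a macrophage and monocyte list (10920 to 12770 against 12820 to 15100) and of the fat list (411.0 to 628.7 against 792.6 to 1204). Neutrophil and glucocorticoid sums were apart and higher in CG, and the other lists overlapped. The separation at 24 h was thus not particular to T and B cell genes. B cell sums were also apart and lower in CG at 8 h (1597 to 1886 against 1898 to 2038) and, barely, at 12 h (1460 to 1771 against 1772 to 2226). At 48 h they overlapped (1603 to 1817 against 1805 to 2157), unlike Cd79a and Cd79b alone. The T cell sums of 48 h were apart (1640 to 1665 against 1715 to 1890). At 72 h the B cell sums were 1949 to 2173 in CG lungs and 1655 to 2091 in air lungs, and they overlapped. Among 17 neutrophil genes 9 were higher and 0 lower in the average, and 17 of 18 genes known to be induced by glucocorticoids were higher, against 9.35% of all probe sets called higher. Their part in the values of the members was not tested.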

How the data were processed

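The authors deposited 1 intensity per probe set and chip on a linear scale, brought to a common trimmed mean that lay between 150.032 and 150.043 when recomputed here with 2% of values removed at each end. Which software made them is not given in the sources used here. Per the file headers, a further set of deposited files holds chip settings (unit other) and gave hybridization days for 97 of 104 chips and chip lots for 95. The members and lists were chosen with earlier results of these data known. To each intensity 16 was added, log2 was taken and the 2 chips of a lung were averaged. All 17 groups were fitted together with limma, variances moderated with a trend (35 residual and 4.886 prior degrees of freedom), and p adjusted by Benjamini and Hochberg over 22626 probe sets. No probe set was named from a symbol shared by several genes (691 probe sets) or from none (1555). Of 12393 genes the brightest probe set stood for the gene. The 3 genes named as most like each member have the highest Pearson r, and list genes named for the average are up to 4 per list of largest change among those called, besides the members. The letter of a chip differs between title and description on 56 chips. The comparisons planned on 7 genes ran on 6. The fit was tested on simulated data with 22626 features at 24 h, where 81 of 100 given a log2 difference of -1 and 100 of 100 given -2 were called, with 7 false calls. Fits used limma 3.58.1 under R 4.3.3, tables pandas 2.3.3 and numpy 2.4.6 under Python 3.11.15, and plots matplotlib 3.10.9. Alternatives changed the offset, scaling, filter, probe set, chip, block, day, lot, control and lungs included, 1 at a time. The fits with the title letter and with the chip lot were chosen after the data were seen.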

Additional observations from a re-analysis of the deposited data

How the results depend on the processing

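Counts below are of 6 genes called, by the brightest probe set of each. In CG against air the count was 0 at every single time. With untreated lungs in place of air lungs it was 1 (Cd79b) at 0.5, 8, 12, 24 and 48 h. At 48 h it was 2 with the lung as random block and the chip letter as replicate block (Cd79a and Cd79b), and 1 with hybridization day as a term (Cd79a). Leaving out 1 lung gave 0 to 1 at 1 h, the 1 being Cd4 without air replicate 2, and 0 at the other single times. The average over times gave 3, but 1 under median centring or quantile normalization (Cd79a), 0 on chip B alone and 2 to 5 without 1 lung, the 5 without air 1 h replicate 2. Air against untreated, averaged, gave 0, but 1 (Cd79b) with the chip-letter replicate block, the title-letter replicate block, the day or the lot as a term. The F tests gave 0 throughout. Labels do not state that a chip letter pairs lungs, so the extra calls under a block are not added support. The cause of these differences was not tested. Most members are dim, which limits what could be seen.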
